A study of Oryctolagus cuniculus with 2 samples.

Results

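The genes described here handle iron, heme and free hemoglobin. They are HP (haptoglobin), HPX (hemopexin), CP (ceruloplasmin), HMOX1 (heme oxygenase 1), TF (transferrin), TFRC (the transferrin receptor), FTH1 and FTL (the heavy and light chains of ferritin), SLC40A1 (ferroportin) and HAMP (hepcidin). The 10 genes were listed by name, and each was read from the probe sets whose single gene symbol in the platform annotation was that name, taking the one with the highest mean signal where there were several. Of the 10 genes, 9 had a probe set, and each of these had 1, so no choice between probe sets was needed. No probe set carried the symbol FTH1, alone or beside another symbol, and FTH1 was not analysed here. The 9 genes stand among 15605 named genes in all. A gene was counted as measured when its log2 signal reached 5 in at least 1 array, which 8 of the 9 genes and 12724 of all named genes did. HAMP was the member under that limit.

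The study compared a rabbit retina with retinal vein occlusion (RVO) with an untreated rabbit retina, both at day 7, to find the expression changes that follow ischemia. RVO was made in the right eye of Dutch rabbits by closing retinal veins with a laser, and the left eye of the animals served as the control, so the Control retina received no laser, and no genetic change is described for either group. The lasered area was cut out before RNA was taken, and the arrays read the rest of the retina with the blood and other cells it held. The sources used here state neither the age of the animals nor whether both RNA samples came from 1 animal or from a pool. Total RNA of each condition was hybridized to 1 Rabbit Gene 1.0 ST array, on which each transcript is read by several short probes.

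Iron travels in plasma bound to transferrin and enters cells through the transferrin receptor. Inside cells it is stored in ferritin, and it leaves through ferroportin, the only known iron exporter of mammals, helped by ferroxidases such as ceruloplasmin. Hepcidin, a peptide hormone made mainly by the liver, removes ferroportin from the cell surface. When red cells break down, haptoglobin binds the free hemoglobin, hemopexin binds the free heme, and heme oxygenase 1 degrades heme inside cells to biliverdin, carbon monoxide and iron. Haptoglobin, hemopexin, ceruloplasmin and hepcidin are also acute phase proteins, whose production in the liver rises in inflammation. In the retina, transferrin and ceruloplasmin are made locally, and inherited loss of ceruloplasmin in humans leads to iron overload of the retina. The messenger RNA of the transferrin receptor is stabilized by iron regulatory proteins when iron is scarce, while the same proteins act on ferritin mainly at translation.

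Haptoglobin and ceruloplasmin stood apart from the other members. HP was 12.6-fold and CP 7.05-fold higher in the RVO array, while the other 6 measured members lay between 0.576-fold and 1.76-fold. Thus 2 of 8 measured members were more than 2-fold higher and none was that much lower. Over all measured genes 445, or 3.50%, were higher by over 2-fold and 61, or 0.479%, were lower. The median log2 difference of the 8 members was 0.62, beside -0.04 over all measured genes, and 7 of the 8 members lay above 0, beside 42.8% of all measured genes. Each condition has 1 array and no replicate error can be given, so none of these differences was tested. The only available measure of disagreement was that between probe sets of the same gene, a pooled SD of 0.19 on the log2 scale over 118 genes with several probe sets. It says nothing of the spread between animals. In such bulk RNA, more cells of a type and more RNA per cell cannot be told apart.

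**Figure D1:**
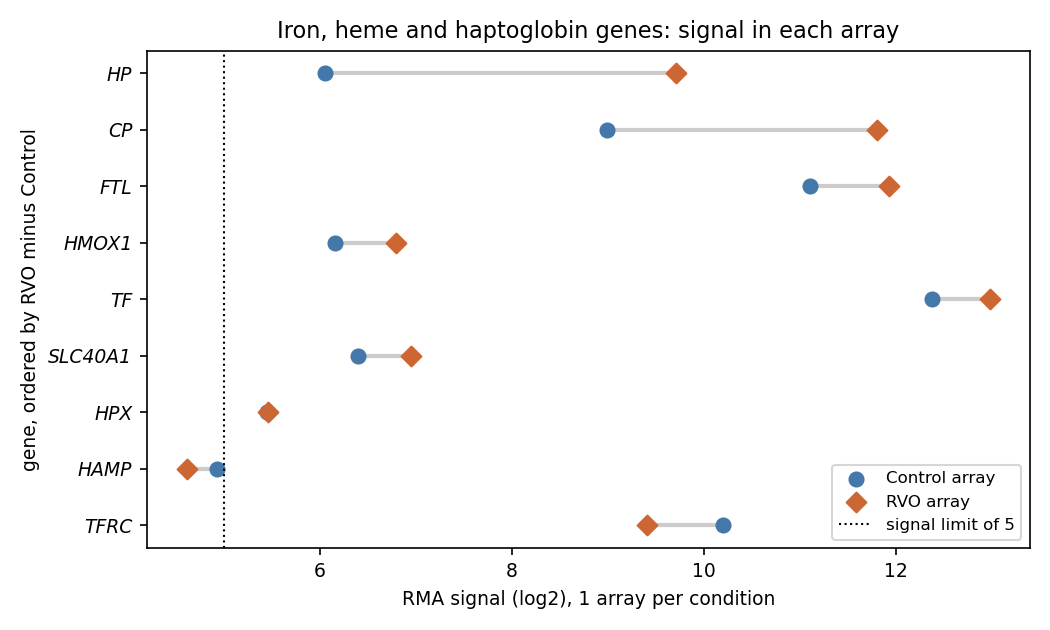
RMA log2 signal (x axis) of the 9 members with a probe set (y axis, ordered by difference) in the Control array (circles) and the RVO array (diamonds), with 1 array per condition. The line is long for HP, from 6.05 to 9.70, and for CP, from 8.99 to 11.80, it runs to the left for TFRC and HAMP, and HAMP lies under the dotted signal limit of 5 in both arrays.

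Signals below are log2 values of each array. Among the scavengers of hemoglobin and heme, HP read 6.05 in Control and 9.70 in RVO, a difference of 3.65. Like HP, all 8 measured members were above the limit in both arrays, so no fold here rests on a signal under it. HP held rank 13 of the 12724 measured genes ordered from the highest difference, with 0.0943% of genes above it. HPX, which captures the heme that hemoglobin releases, read 5.44 in Control and 5.45 in RVO, a difference of 0.01 and rank 5314. The difference of HP was thus larger than that of HPX by 3.64 on the log2 scale, although both encode plasma scavengers. Both HPX signals lay near the limit of 5.

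HMOX1, the inducible enzyme of heme breakdown, read 6.16 in Control and 6.79 in RVO, which is a difference of 0.63, or 1.55-fold, at rank 838. It did not reach 2-fold, and 6.58% of measured genes had a larger difference. HMOX2, the constitutive enzyme, differed by 0.22. The next enzymes of the route, the biliverdin reductases BLVRA and BLVRB, differed by 0.21 and 0.46. These 3 genes were chosen for their role after their values had been seen, as were the other partners of the members named below without passing 2-fold.

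Among the genes of iron export, CP, the ferroxidase that oxidizes iron as it leaves the cell, read 8.99 in Control and 11.80 in RVO. Its difference of 2.82 held rank 44, with 0.338% of genes above it. Hephaestin (HEPH), a membrane ferroxidase related to ceruloplasmin, was also higher by over 2-fold, at 5.70 and 6.96, a difference of 1.27. The third member of that family, HEPHL1, read 3.98 in Control and 3.88 in RVO, both under the limit. SLC40A1, the exporter with which these ferroxidases work, read 6.39 and 6.95, a difference of 0.56, or 1.47-fold, at rank 987. The difference of CP exceeded that of SLC40A1 by 2.26. HAMP read 4.92 in Control and 4.61 in RVO. With both signals under the limit, the level of hepcidin transcript was not measurable here, and its difference of -0.31 is given as a value only.

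**Figure D2:**
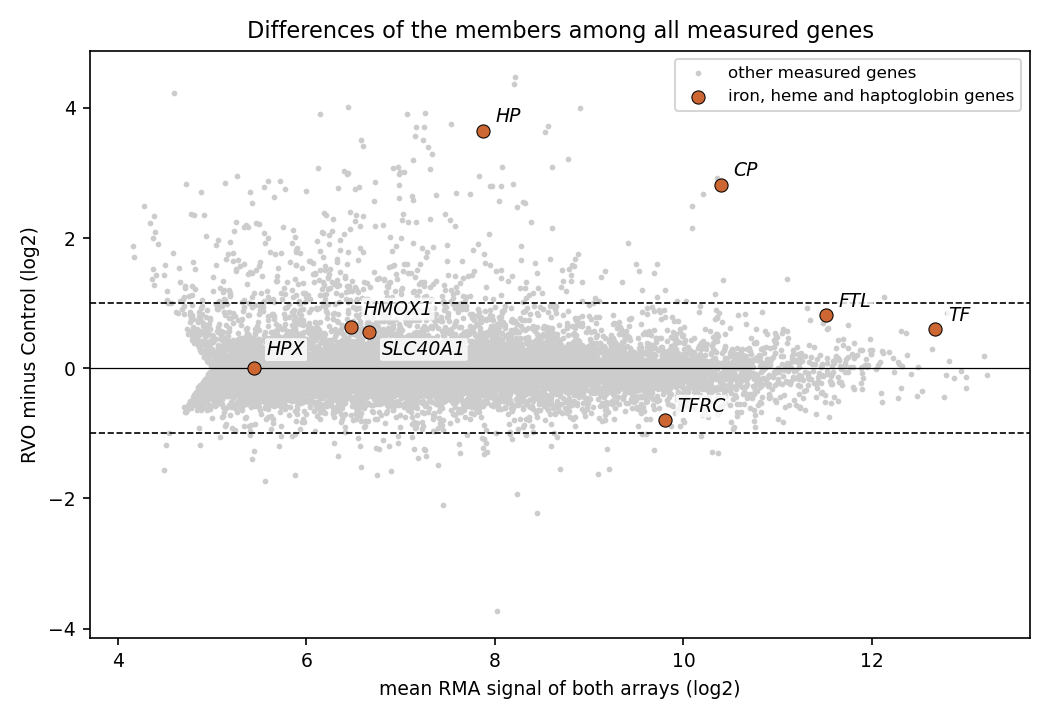
Log2 difference, RVO minus Control (y axis), against the mean log2 signal of both arrays (x axis) for the 12724 measured genes, with the 8 measured members in colour and dashed lines at 2-fold. HP and CP lie among the highest differences, FTL, HMOX1, TF and SLC40A1 lie between 0.56 and 0.82, HPX lies at 0.01 and TFRC near the lower edge at -0.80.

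Iron uptake gave differences of opposite sign in its carrier and its receptor. TF read 12.37 in Control and 12.98 in RVO, a difference of 0.60, or 1.52-fold, at rank 898. TFRC read 10.20 in Control and 9.41 in RVO, a difference of -0.80, or 0.576-fold. TFRC was the only measured member with a lower signal in the RVO array. It held rank 132 counted from the lowest of the 12724 genes, with 1.03% of genes below it, and it did not reach 2-fold. The difference between TF and TFRC was 1.40.

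FTL, a subunit of the iron store, read 11.11 in Control and 11.92 in RVO, a difference of 0.82, or 1.76-fold, at rank 610. It was the third highest of the members, and it exceeded the difference of TFRC by 1.61. Ferritin genes have many processed copies in mammalian genomes, and whether the FTL probes also read such copies was not tested. At a lower threshold of 1.5-fold, 5 of the 8 measured members were higher, namely HP, CP, FTL, HMOX1 and TF, and 1 was lower, TFRC. Over all measured genes 7.25% were higher and 3.03% lower by over 1.5-fold. SLC40A1 lay just under that threshold and TF just over it, and with the trend of the difference with signal removed they changed places, with TF at 0.58 and SLC40A1 at 0.62. At 3-fold HP and CP were the 2 higher members, beside 1.52% of all measured genes, and no member was lower, beside 0.0629%.

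Other genes of iron and heme metabolism were read from lists, as the plot of the lists shows. For these and the later lists, the shares over all measured genes were 3.50% higher and 0.479% lower by over 2-fold. Of all measured genes, 42.8% lay above 0. Among 17 measured genes of iron transport and storage, HEPH alone was higher by over 2-fold, no gene was lower by as much, and the median was -0.01. The cargo receptor of ferritin breakdown, NCOA4, differed by 0.40, the duodenal ferric reductase CYBRD1 by 0.35, the importer SLC11A2 (DMT1) by 0.03 and the mitochondrial importers SLC25A37 and SLC25A28 by -0.04 and -0.09. TFR2, the second transferrin receptor, differed by -0.12 at signals of 5.39 and 5.26. The neutrophil proteins that withhold iron, LTF and LCN2, differed by -0.20 and 0.05, and LCN2 lay under the limit in both arrays.

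None of 16 measured iron regulators passed 2-fold in either direction, and their median was 0.11. The largest differences were those of SMAD1, a transducer of bone morphogenetic protein signals to hepcidin, at 0.82, and of the receptor BMPR1A, at 0.63. The iron regulatory proteins, which bind the transcripts of TFRC and ferritin, are encoded by ACO1 and IREB2. ACO1 read 7.91 in Control and 8.42 in RVO, a difference of 0.51, while IREB2 read 8.49 and 8.48. FBXL5, which marks IREB2 protein for degradation, differed by -0.17.

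Of 16 measured genes of heme uptake, breakdown and export, 1 was more than 2-fold higher, none was that much lower, the median was 0.29, and 13 lay above 0. The 1 gene was HEBP1, a heme-binding protein, which read 6.35 in Control and 7.81 in RVO, a difference of 1.46. Its relative HEBP2 differed by 0.80. LRP1, the receptor that takes up heme bound to hemopexin, differed by 0.69 and the heme exporter FLVCR1 by 0.70. CD163, the receptor for haptoglobin bound to hemoglobin, was not analysed here. NFE2L2 (NRF2) and BACH1, the activator and the repressor of HMOX1, differed by 0.43 and 0.28.

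The next lists were those of the enzymes that make heme and iron-sulfur clusters. None of 11 measured genes of heme synthesis passed 2-fold or 1.5-fold, and their median was 0.04. The largest were those of TSPO, a mitochondrial outer membrane protein, at 0.57, and UROD, uroporphyrinogen decarboxylase, at 0.27. None of 13 measured genes of iron-sulfur cluster assembly passed either threshold, and their median was 0.00. ISCU, the scaffold of assembly, differed by 0.42 and LYRM4 by -0.32.

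**Figure D3:**
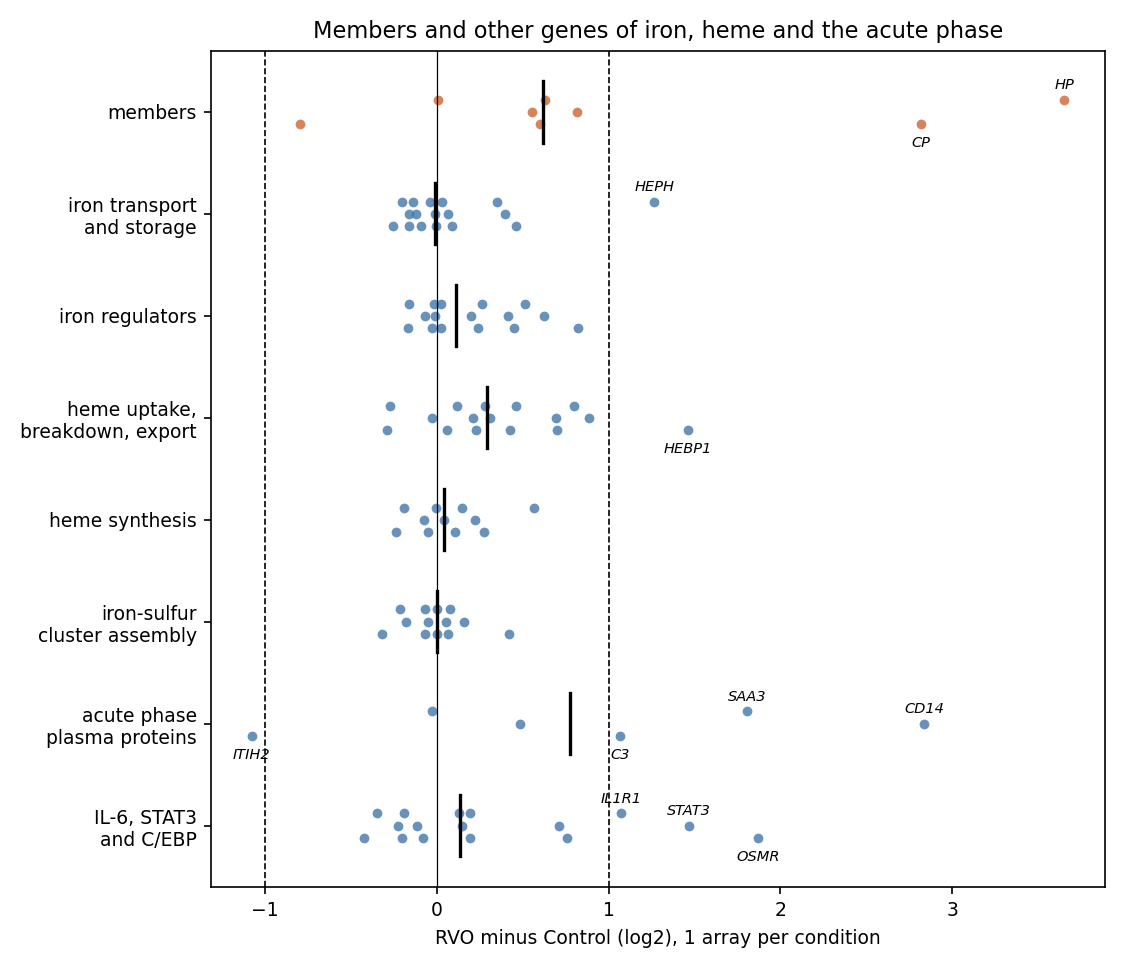
Log2 difference, RVO minus Control (x axis), of the measured genes of each list (y axis), 1 point per gene, with a bar at the list's median, dashed lines at 2-fold and names for genes beyond it. The members have a median of 0.62 and the acute phase list of 0.78, which turns to -0.03 with the genes under the signal limit included, and most points of the other lists lie within 2-fold.

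Since HP, HPX, CP and HAMP encode acute phase proteins that rise in inflammation, other acute phase genes were read in the same arrays. Of 17 with a probe set, 6 were measured and 11 lay under the limit in both arrays. Of the 6, 3 were more than 2-fold higher and 1 was more than 2-fold lower. Their median was 0.78, but -0.03 when the 11 genes under the limit were included, and 1.44 with a limit of 6. Higher were CD14, a coreceptor for lipopolysaccharide that is also in the list of macrophage genes, at 2.84, SAA3, a serum amyloid A, at 1.81, and complement C3, at 1.07. Lower was ITIH2, a heavy chain of inter-alpha-trypsin inhibitor, which read 7.08 in Control and 6.01 in RVO, a difference of -1.08. The list was not divided by whether a protein rises or falls in the acute phase. The fibrinogen chains FGA, FGB and FGG, C-reactive protein (CRP) and orosomucoid (ORM1) were under the limit in both arrays.

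Acute phase genes of the liver are driven by cytokines of the interleukin 6 family and by interleukin 1, through STAT3 and C/EBP factors among others. Of 16 measured genes of these routes, 3 were more than 2-fold higher and none was that much lower. In the interleukin 6 family route these were the oncostatin M receptor OSMR at 1.87 and the transcription factor STAT3 at 1.47, and the third was the interleukin 1 receptor IL1R1 at 1.07. The median of the 16 was 0.14, or 0.45 with a limit of 6. Of the ligands, LIF differed by 0.76, at 6.49 and 7.24, and OSM, the ligand of OSMR, by -0.42. IL6 and IL1B differed by -0.23 and -0.08, at Control signals of 5.27 each. CEBPB, a transcription factor of acute phase genes, differed by 0.13.

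Markers of cells that could bring these transcripts into the sample were read beside the members. Retinal identity was clear in both arrays, where the 15 rod and cone genes had log2 signals from 7.01 to 13.15 in Control and from 6.82 to 12.92 in RVO, with a median difference of -0.42. The largest of these were those of the cone transducin GNAT2, at -0.79, and of the disc membrane protein ROM1, at -0.56. None of the 10 measured erythroid genes passed 2-fold and none lay above 0, with a median of -0.23. The largest differences were those of the membrane protein GYPC, at -0.54, and of beta spectrin (SPTB), at -0.38. The globin gene HBB2 read 6.61 in Control and 6.27 in RVO, and ALAS2, the heme synthesis enzyme of red cell precursors, read 5.22 and 4.98. The summed linear signal of the 14 erythroid genes with a probe set was 1875 in Control and 1560 in RVO. EPB41, a gene also used outside red cells, gave 1053 and 899 of it, and without EPB41 the sum was 822 and 661. Next highest in Control were SPTB, ANK1 and GYPC, at 7.33, 7.23 and 7.12. SLC4A1, GATA1, KLF1, TFR2 and ALAS2 lay near the limit, at 5.22 to 5.41 in Control, and 4 erythroid genes lay under it in both arrays. How much red cell RNA each sample held was not tested. Of 16 liver genes with a probe set, 11 were under the limit in both arrays, and none of the 5 measured passed 2-fold. The largest differences among the 5 were those of transthyretin (TTR), at -0.55, and of AMBP, the precursor of alpha-1-microglobulin, at -0.29. Albumin (ALB), the defining liver transcript, was at 3.07 in Control and 2.81 in RVO, under the limit in both. The summed linear signal of the liver genes was 884 and 706, or 418 and 388 without TTR, which pigment epithelium and choroid plexus also make.

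Most markers of macrophages, skeletal muscle and fibroblasts were higher in the RVO array. Of 20 measured genes of microglia and macrophages, 14 were more than 2-fold higher and none was that much lower, and their median was 1.57. The highest were GPNMB at 3.91, CD14 at 2.84, cathepsin S (CTSS) at 2.80, the lysosomal membrane protein LAPTM5 at 2.47 and perforin 2 (MPEG1) at 2.29. Their summed linear signal was 1702 in Control and 5997 in RVO. Of 11 skeletal muscle genes 9 were more than 2-fold higher, led by the myosin light chain MYL1 at 4.36, nebulin (NEB) at 3.71, the troponins TNNC2 and TNNI1 at 3.50 each and desmin (DES) at 2.78. Their summed linear signal was 1461 and 5069. PVALB, which retinal neurons also express and which differed by -0.45, gave 60.4% of the Control sum, and without it the sum was 578 and 4422, or 7.65-fold. Of 12 fibroblast genes 9 were more than 2-fold higher, led by decorin (DCN), which read 6.90 in Control and 10.90 in RVO, fibronectin (FN1) at 3.64, ASPN at 2.95, MGP at 2.70 and lumican (LUM) at 2.49, with a summed linear signal of 2436 and 9002. Of the 12 fibroblast genes 10 lay above 0 and 2 below, THY1 at -0.46 and PDGFRA at -0.41. The Control signals of TNNC2 and ASPN were under the limit, at 4.83 and 3.78. So were those of the macrophage genes PTPRC, MRC1 and CX3CR1, at 4.60, 4.42 and 4.73, of which PTPRC is among the 14.

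The other cell types gave differences in both directions. Of 8 measured neutrophil genes 4 lay above 0 and 4 below, with a median of -0.02. S100A8, a calcium-binding protein, and the chemokine receptor CXCR1 were more than 2-fold higher, by 2.09 and 1.12, and S100A8 read 3.35 in Control. Myeloperoxidase (MPO) differed by -0.34 and S100A9 by -0.10. The summed linear signal of the 11 neutrophil genes with a probe set was 398 and 469. Müller glia are the radial glia of the retina and make ceruloplasmin in mice. Of their 15 genes 9 lay above 0 and 6 below, with a median of 0.43, and GFAP, the filament protein of reactive glia, was the only one beyond 2-fold, at 1.20. Beyond 1.5-fold 5 were higher and 2 were lower. The lower ones were carbonic anhydrase 14 (CA14) at -0.70 and the retinaldehyde-binding protein RLBP1 at -0.67, and glutamine synthetase (GLUL) differed by -0.56. The summed linear signal of the Müller glia genes was 19724 in Control and 26556 in RVO, a ratio of 1.35. Clusterin (CLU) had the highest signal of these genes, at 12.37 in Control and 13.22 in RVO, and weighs most in that sum. The sum was not taken without it. Of 14 measured pigment epithelium genes none passed 2-fold, 6 lay above 0 and 8 below, and the median was -0.19. The largest differences were those of the visual cycle enzyme LRAT, at -0.96, and of SERPINF1, at 0.87. Beyond 1.5-fold 2 of these genes were higher, SERPINF1 and MLANA, the latter at 0.74. As many were lower, LRAT and the visual cycle enzyme RPE65, the latter at -0.87. Of 8 measured endothelial genes 5 lay above 0 and 3 below, with a median of 0.15. Only PECAM1, an adhesion molecule, was higher by over 2-fold, at 1.03. None of 5 measured genes of choroid plexus and ciliary epithelium was, where TTR and OTX2, at 0.26, differed most. No marker has a true zero on this scale. The part of these cell types in the values of HP, CP and the other members was not tested.

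**Figure D4:**
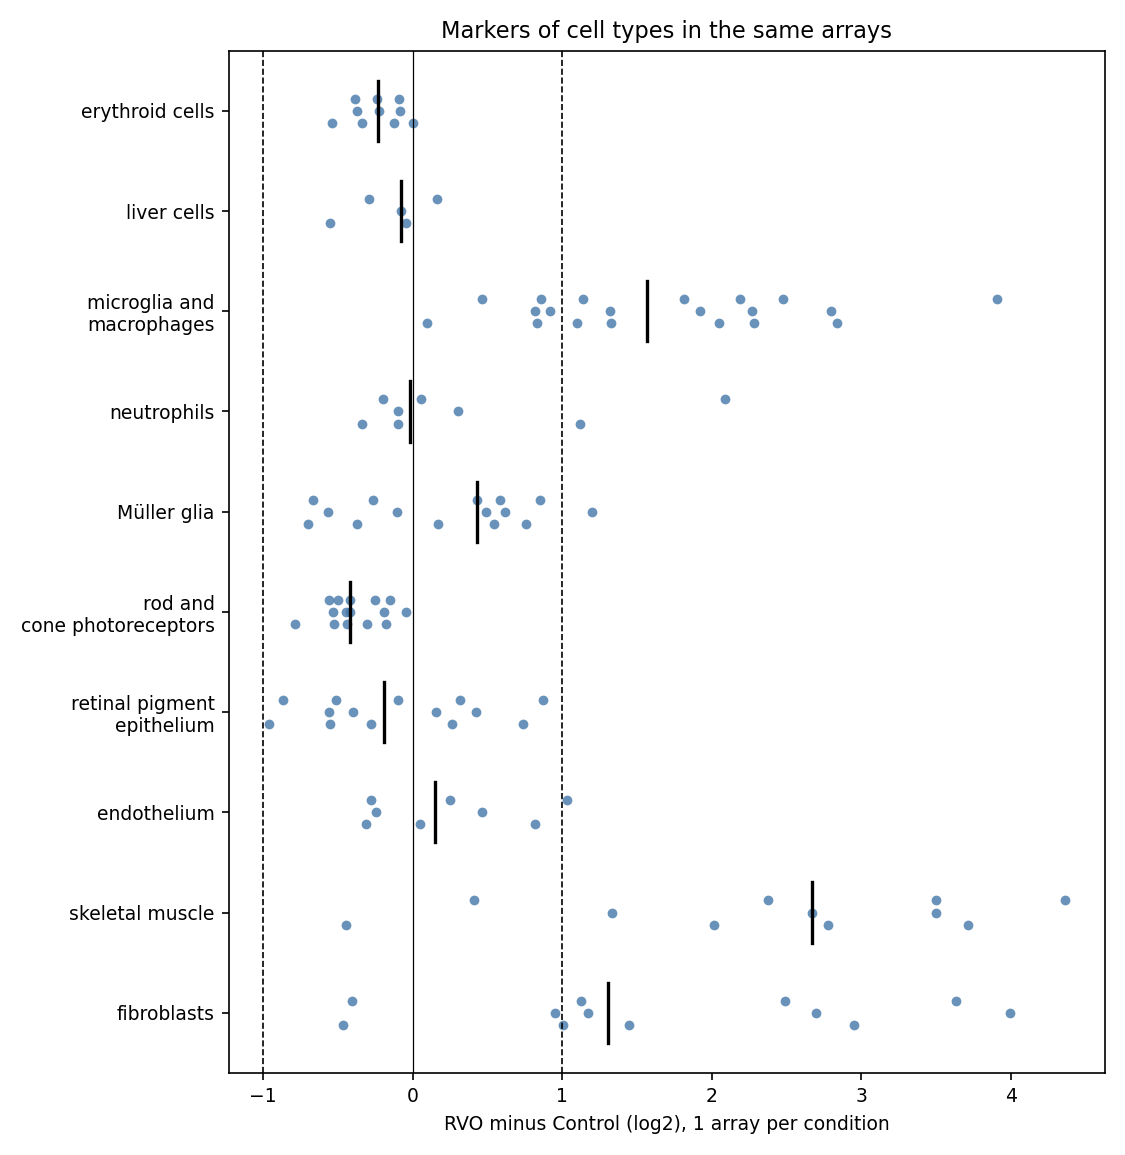
Log2 difference, RVO minus Control (x axis), of measured marker genes of each cell type (y axis), 1 point per gene, with a bar at the median and dashed lines at 2-fold. Markers of macrophages, skeletal muscle and fibroblasts have medians of 1.57, 2.67 and 1.31, while no erythroid or liver marker lies beyond 2-fold.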

How the data were processed

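Expression was measured in 1 Control and 1 RVO retina sample, with a single array per sample. The authors deposited log2 signals made by RMA in R: background correction, quantile normalization of the arrays and a summary of each probe set. Quantile normalization gives the probe signals of both arrays the same distribution before the summary, so a shift shared by most genes would not be seen. The log2 values were used as deposited, and their medians over 26193 probe sets were 6.25 (Control) and 6.23 (RVO). Names came from the platform annotation, where 15816 probe sets have 1 symbol, 376 several and 10001 none. No list gene was recovered through its RefSeq gene identifier (assembly mOryCun1.1). The methods' limit of 5 and 2-fold threshold were kept.

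The members and lists were chosen with earlier results of these data known. Of each list, genes beyond 2-fold were named (up to the 5 largest), otherwise the 2 largest differences. Other list genes were named for their role after their values had been seen. No p-value can be had from 1 array per condition, and the number of arrays limits the precision. Scripts (Python 3.11.15, pandas, statsmodels) were tested on simulated data. Promoter and protein comparisons were planned and not made, because no sequence table was used here.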

Additional observations from a re-analysis of the deposited data

How the results depend on the processing

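The alternatives were no signal limit, a limit of 6, centring on the median of all probe sets, repeated quantile normalization, removal of the loess trend with signal, and the mean or the lowest of a gene's probe sets. Under all of these 2 members stayed higher by over 2-fold and 0 lower, and at 3-fold the counts were also 2 and 0. At 1.5-fold they were 5 and 1. With the trend removed they were also 5 and 1 at 1.5-fold, with SLC40A1 in place of TF. The median of the members ran from 0.60 to 0.66. Single members moved by at most 0.10, with HPX from 0.01 to 0.11 and TFRC from -0.80 to -0.78. The choice of probe set could not matter, as each member has 1. A limit of 6 left out HPX. The same alternatives, added for the other lists after seeing the data, left the counts beyond 2-fold of the iron, heme and acute phase lists within 1.5 times. The count of higher endothelial genes was 2 without a limit, with repeated quantile normalization and with the trend removed, and that of neutrophil genes was 1 with a limit of 6. No paired analysis was possible because each condition has 1 array. Signal limits what HAMP and HPX can show, and the lack of replicates limits every value.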
